A study of Mus musculus with 2 samples.

Results

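The mitochondrial ribosomal protein genes are the nuclear genes named Mrpl (large subunit) or Mrps (small subunit) with a number, taken here by name among the protein-coding genes of the annotation, whatever their level. The annotation (GENCODE M21, mm10) holds 78 of them, and all 78 had reads in both libraries, out of 15031 annotated genes with reads in either library. Heart of female B6CASTF1/J mice, the hybrid offspring of the C57BL/6J and CAST/EiJ strains, was studied at 18 to 20 months of age by long-read RNA sequencing, in which 1 read can span a whole transcript. There was 1 group of 2 libraries, replicate 1 and replicate 2, each made from 2 µg of RNA, with no treatment and no other genotype. Each library has its own biological sample in the labels, but both carry the same donor entry, so the number of animals behind them cannot be given. The spread between the libraries may thus be technical in part, and every test below compares 2 libraries with counting error and says nothing of conditions.

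Mitochondrial ribosomes translate the few messages of the mitochondrial genome, which encode core subunits of the respiratory chain and ATP synthase. Their RNA is made inside the mitochondrion, whereas all of their proteins are encoded in the nucleus, made in the cytosol and imported. Some of these proteins descend from bacterial ribosomal proteins, and others are found only in mitochondrial ribosomes. Heart muscle is among the tissues richest in mitochondria.

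Together the 78 genes had 8180 reads in replicate 1 and 8448 reads in replicate 2, which was 1.30% and 1.27% of the mouse reads (630211 and 664319). Levels are given as CPM, reads per 1000000 mouse reads after scaling of the libraries, and 1 read was worth 1.61 CPM in replicate 1 and 1.48 CPM in replicate 2. Summed over the genes this came to 13163 CPM for replicate 1, against 12540 CPM for replicate 2. The median gene stood at 102 CPM, and the quartiles lay at 73.4 and 168 CPM. The range ran from 16.5 CPM for Mrpl19, a large subunit protein with a bacterial homologue, to 2173 CPM for Mrpl30, the counterpart of bacterial protein L30, a 132-fold span. A long read was counted once whatever its length, so these levels are not divided by length. The plot of levels by library shows every gene.

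**Figure D1:**
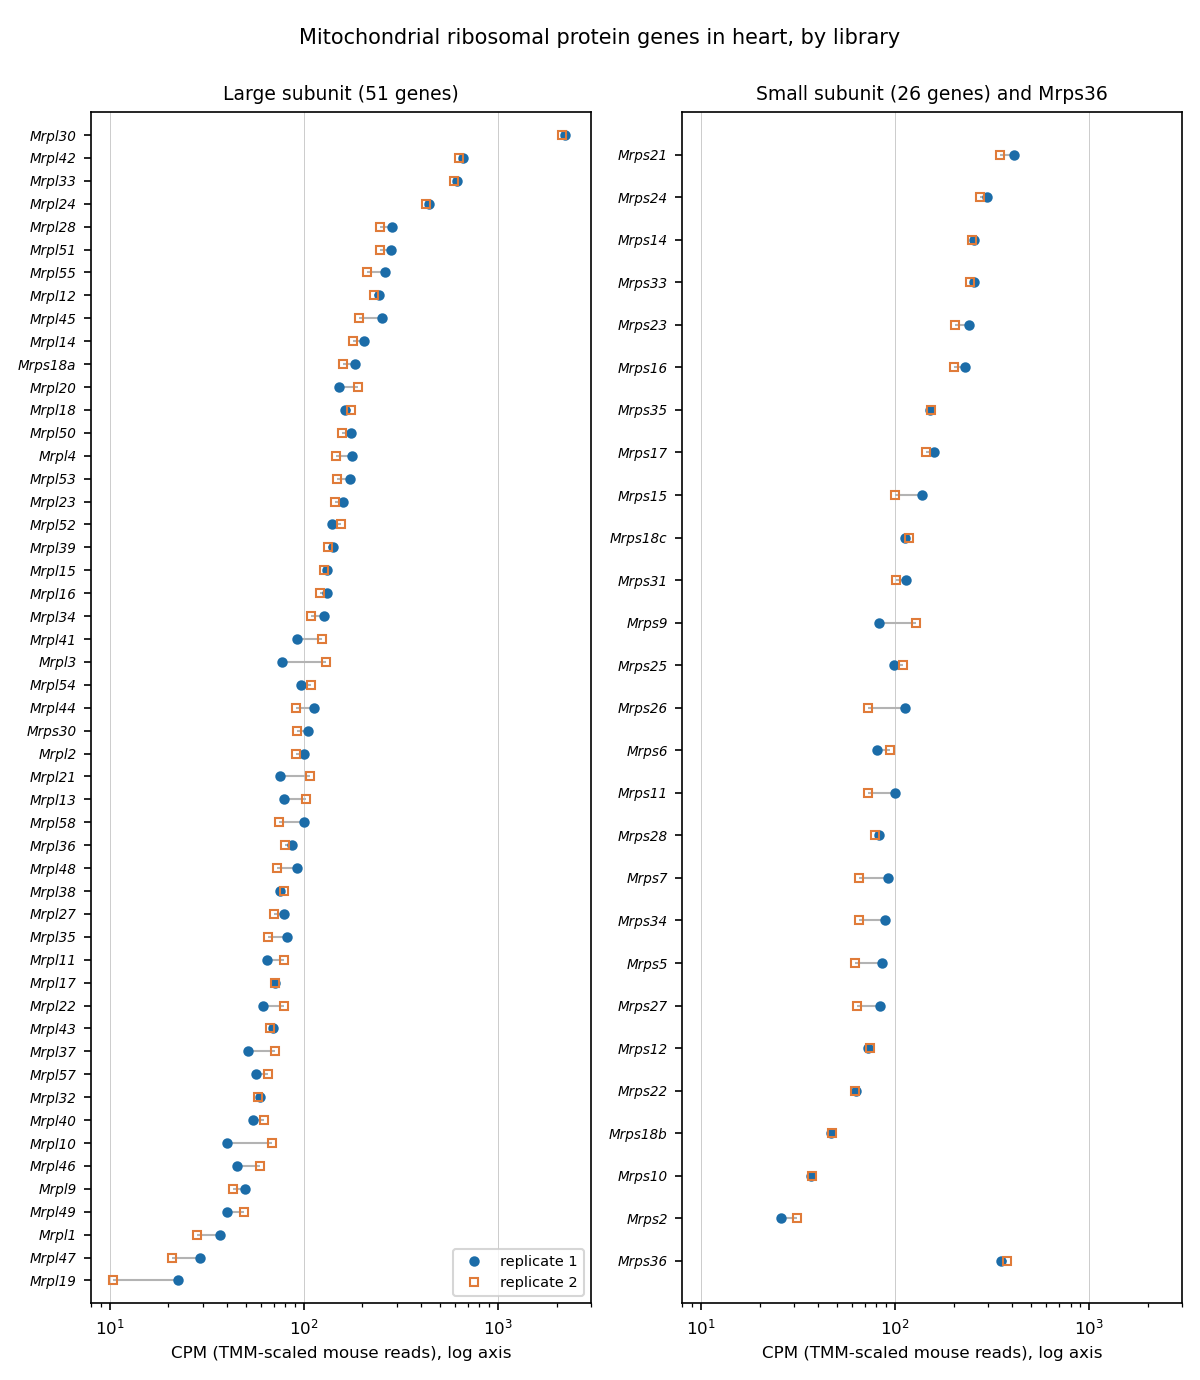
Level of each of the 78 genes in CPM (log axis) in replicate 1 (filled circles) and replicate 2 (open squares), for the 51 large subunit genes on the left and for the 26 small subunit genes and Mrps36 on the right. Mrpl30 lies apart at 2203 and 2143 CPM, and 73 of the 78 genes are within 1.5-fold between the libraries.

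Sorted by the subunit in which the protein sits, 51 genes belong to the large subunit, 26 to the small subunit and 1, Mrps36, to neither. The large subunit genes had a median of 102 CPM per gene and summed to 9301 CPM (replicate 1) and 8965 CPM (replicate 2). The small subunit genes had a median of 98.3 CPM and summed to 3510 CPM (replicate 1) and 3197 CPM (replicate 2). The median gene was thus at a like level in both subunits, and the larger sum of the large subunit came with its greater number of genes and with Mrpl30. Medians were also close by origin of the protein, where Mrps18a and Mrps18b, derived from bacterial S18, were counted as found only in mitochondria. In the large subunit they were 99.2 CPM for the 30 genes with a bacterial homologue and 102 CPM for the 21 found only in mitochondria, and in the small subunit 95.9 CPM (16 genes) and 98.3 CPM (10 genes).

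Among large subunit genes, Mrpl30 averaged 2173 ± 42.1 CPM (SD, n = 2, as for every ± below). Next came Mrpl42, a protein found only in mitochondrial ribosomes, with 411 reads in replicate 1 and 422 in replicate 2 (644 ± 24.7 CPM). Mrpl33, the counterpart of bacterial L33, had 380 and 401 reads (603 ± 11.5 CPM), and Mrpl24, the counterpart of L24 near the mouth of the exit tunnel, had 273 and 287 reads (433 ± 9.41 CPM). These 4 genes stood above every other member in both libraries, and in 3 of them, all but Mrpl42, most reads were assigned to no annotated transcript, as described further on. Mrpl28 and Mrpl51 followed at 265 ± 28.2 and 263 ± 25.9 CPM.

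The genes for the functional centres of the large subunit were spread over the range. At the factor-binding stalk, Mrpl12, whose protein has also been reported to bind the mitochondrial RNA polymerase, had 152 reads in replicate 1 and 154 in replicate 2 (237 ± 11.3 CPM). Mrpl11, at the base of the stalk, had 40 and 53 reads (71.5 CPM), and Mrpl10, which holds the copies of the Mrpl12 protein, had 25 and 46 reads (54.3 ± 19.8 CPM). In bacteria several copies of the Mrpl12 counterpart sit on 1 copy of the Mrpl10 counterpart, and here the message of Mrpl12 was the more abundant of the pair in both libraries. No protein was measured, and a link between message level and protein copies was not tested. Around the peptide exit, Mrpl45, which anchors the ribosome at the inner membrane, had 156 reads in replicate 1 and 129 in replicate 2 (221 ± 42.1 CPM). Its neighbours there, Mrpl23, Mrpl22 and Mrpl47 (the counterpart of bacterial L29), averaged 152, 69.9 and 24.9 CPM. Of the central protuberance proteins found only in mitochondria, Mrpl38 stood at 77.2 CPM, Mrpl40 at 58.5 CPM, Mrpl46 at 52.2 CPM and Mrpl48 at 82.2 CPM. Mrpl58, a peptidyl-tRNA hydrolase that rescues stalled ribosomes and is also a built-in subunit, had 62 and 50 reads (87.0 ± 18.1 CPM). The lowest of all 78 genes were Mrpl19 with 14 reads in replicate 1 and 7 in replicate 2, Mrpl47 with 18 and 14, Mrps2 with 16 and 21, Mrpl1 with 23 and 19, and Mrps10 with 23 and 25.

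Small subunit genes covered a narrower range, from 28.5 CPM for Mrps2 to 377 CPM for Mrps21. Mrps21, the counterpart of bacterial S21, had 253 reads in replicate 1 and 234 in replicate 2 (377 ± 42.3 CPM). Mrps24, the counterpart of S3 at the messenger RNA entrance, had 185 reads in each library (286 ± 16.3 CPM). Mrps14 had 159 and 168 reads (253 ± 4.59 CPM), and Mrps33, a protein found only in mitochondrial ribosomes, 159 and 163 reads (249 ± 9.84 CPM). Mrps12, the counterpart of S12 at the decoding centre, was lower, with 45 and 50 reads (73.3 ± 1.28 CPM). In both libraries Mrps12 was below the small subunit median and Mrps21 was at the top of that subunit.

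Gene names do not always give the subunit. The mouse genome has 3 genes derived from bacterial S18, and their proteins occupy different places. Mrps18a, whose protein sits in the large subunit, had 114 reads in replicate 1 and 107 in replicate 2 (171 ± 17.4 CPM). Mrps18c, the direct counterpart of S18 in the small subunit, had 70 and 79 reads (115 ± 3.27 CPM), and Mrps18b, also in the small subunit, had 29 and 32 reads (47.1 ± 0.589 CPM). The order Mrps18a, Mrps18c, Mrps18b held in both libraries. Mrps30, likewise a large subunit protein despite its name, had 65 and 62 reads (98.3 ± 8.89 CPM). Mrps36 encodes a small component of the 2-oxoglutarate dehydrogenase complex and is not part of the ribosome as now understood, and with 219 reads in replicate 1 and 254 in replicate 2 (365 ± 17.4 CPM) its mean was just below that of Mrps21.

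The members' median of 102 CPM lay below the 250 CPM of 88 cytosolic ribosomal protein genes. It was also below the 1663 CPM of 84 nuclear genes of the respiratory chain and ATP synthase. The cytosolic genes were taken by name among protein-coding genes. They include Rpl10-ps3, named as a pseudogene, at 148 CPM on average beside 16.1 CPM for Rpl10. How reads were shared between such entries was not examined. All 4579 protein-coding genes that reached 10 reads in both libraries had a median of 48.3 CPM. These are descriptions of 1 tissue, in which fewer cells of a type and less RNA per cell cannot be told apart.

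**Figure D2:**
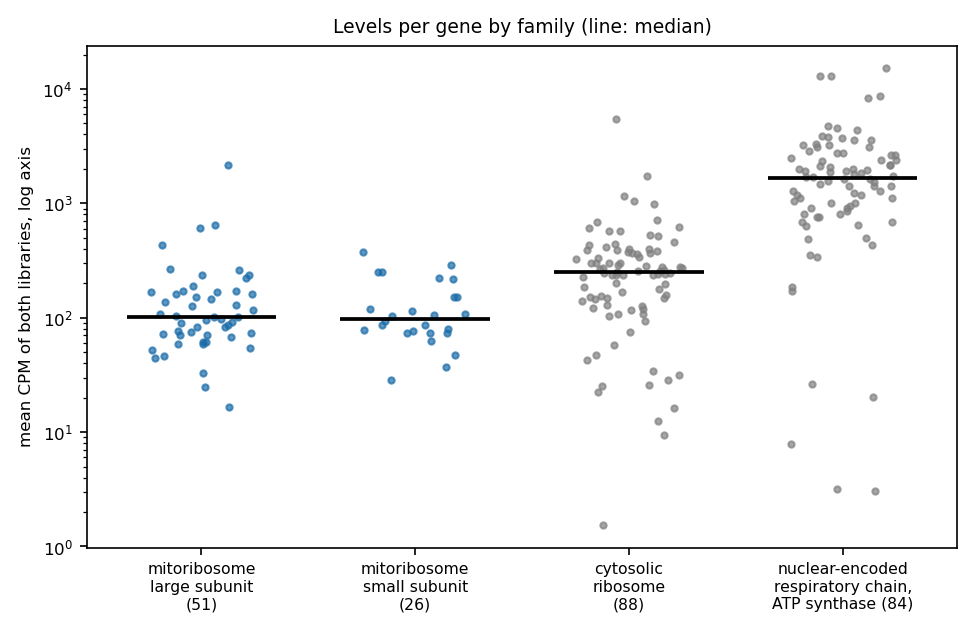
Mean CPM of both libraries (log axis) for each gene of the large and small mitochondrial ribosomal subunits, the cytosolic ribosome, and the nuclear-encoded respiratory chain and ATP synthase. Each point is a gene and each line the median, at 102, 98.3, 250 and 1663 CPM.

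No member was called as different between the libraries. With an exact binomial test per gene and Benjamini-Hochberg adjustment over all 7545 genes with at least 10 reads, 0 of the 78 were called at 0.05, against 156 genes (2.07%) of all those tested. DESeq2 size factors in place of TMM also gave 0. At an unadjusted p under 0.05 there were 5 of 78 members, 2 higher in replicate 1 and 3 higher in replicate 2, against 735 of all 7545 genes. These 5 are named here after their values were seen. Mrpl3, which reaches toward the peptidyl transferase centre, had the smallest adjusted p, with 48 reads in replicate 1 and 87 in replicate 2 (fold 0.598, 95% interval 0.411 to 0.860, adjusted p = 0.133). The others were Mrps9 (51 and 86 reads, adjusted p = 0.265), Mrpl10 (25 and 46 reads, adjusted p = 0.420), Mrps26 (70 and 49 reads, adjusted p = 0.347) and Mrpl45 (156 and 129 reads, adjusted p = 0.360) by the same binomial test with Benjamini-Hochberg adjustment. None of these passed the threshold after adjustment.

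The log2 ratio of replicate 1 over replicate 2 was positive for 50 of the 78 genes, and its median was 0.09, against -0.00 for all genes tested. Only Mrpl19, at 14 and 7 reads, was more than 2-fold apart (fold 2.17, 95% interval 0.821 to 6.35), and at so few reads a difference of that size is within counting error. Across members the log2 CPM of the libraries had a Pearson correlation of 0.961 and a Spearman correlation of 0.925, a description over genes of the same 2 libraries. Markers of some other cell types were less alike. Marker genes of red blood cells summed to 30391 CPM (replicate 1) and 11784 CPM (replicate 2), and 5 of 5 were called higher in replicate 1 by the same test. Atrial muscle markers summed to 1806 and 4318 CPM, with 4 of 4 called higher in replicate 2, and fat cell markers to 611 and 1437 CPM, with 3 of 4. Most of the fat cell sum was Fabp4 (574 and 919 CPM), while Cfd was at 35.4 and 463 CPM and Adipoq at 1.61 and 40.1 CPM. Airway markers, 4 of 4 called, had 0 reads and 429 reads (637 CPM), so all 4 were at 0 in replicate 1. The labelled tissue was plain in both, with 8 heart muscle markers at 46948 and 43006 CPM in sum, 4 of them called higher in replicate 1. Fibroblast markers summed to 333 and 460 CPM (1 of 4 called) and endothelial ones to 177 and 160 CPM (0 of 4). The part of these differences in the members' levels was not tested.

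**Figure D3:**
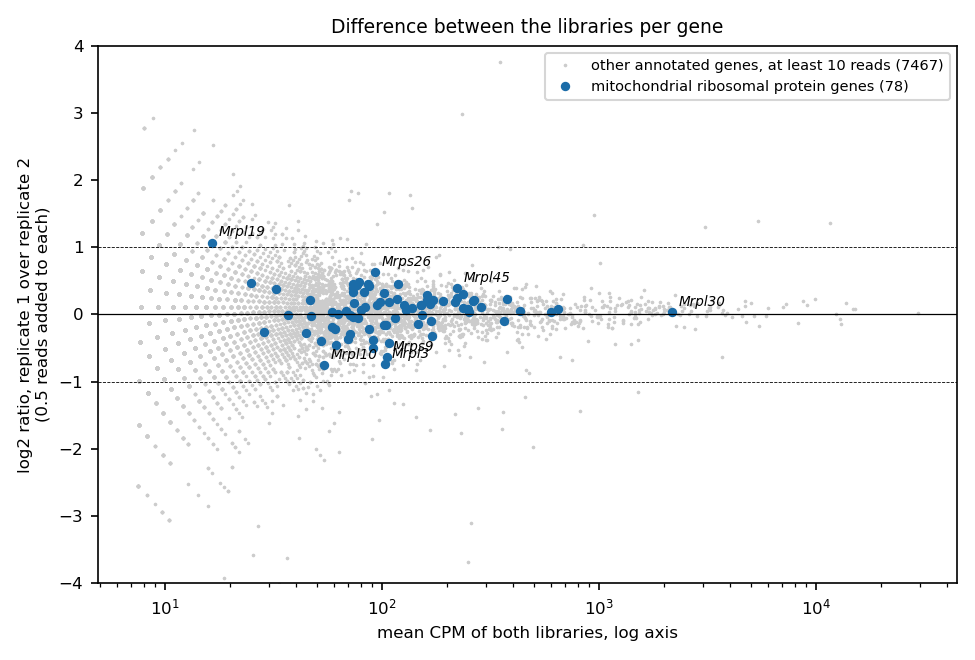
Log2 ratio of replicate 1 over replicate 2 (0.5 reads added to each) against mean CPM (log axis) for the 78 genes (blue) and 7467 other genes with at least 10 reads (grey, 28 of them outside the range shown). The 5 members at an unadjusted p under 0.05 are named with Mrpl30 and Mrpl19, dashed lines mark 2-fold, and Mrpl19 lies past the upper one.

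The deposited tables sort each read by how its exons match the annotation. Known reads follow an annotated transcript, incomplete matches follow part of one, new combinations join annotated splice sites in a new way, new splice sites use at least 1 site outside the annotation, and the genomic class holds reads that fit none of these. Of the members' reads, 66.6% in replicate 1 and 66.4% in replicate 2 were known, 5.95% and 5.28% incomplete, 6.31% and 6.24% of new splice sites, and 19.8% and 20.3% genomic. New combinations had 107 and 152 reads. Each class thus differed by less than 1 percentage point between the libraries. A few genes set these sums. The median member had 88.9% of its reads in known transcripts and 0.741% in the genomic class, against medians of 74.8% and 3.81% over those 4579 protein-coding genes. This was not particular to the members. The same medians were 94.6% and 0% for the cytosolic ribosomal protein genes. For the nuclear genes of the respiratory chain and ATP synthase they were 93.7% and 0%. In 37 members at least 90% of the reads were known, and in 34 none were genomic.

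**Figure D4:**
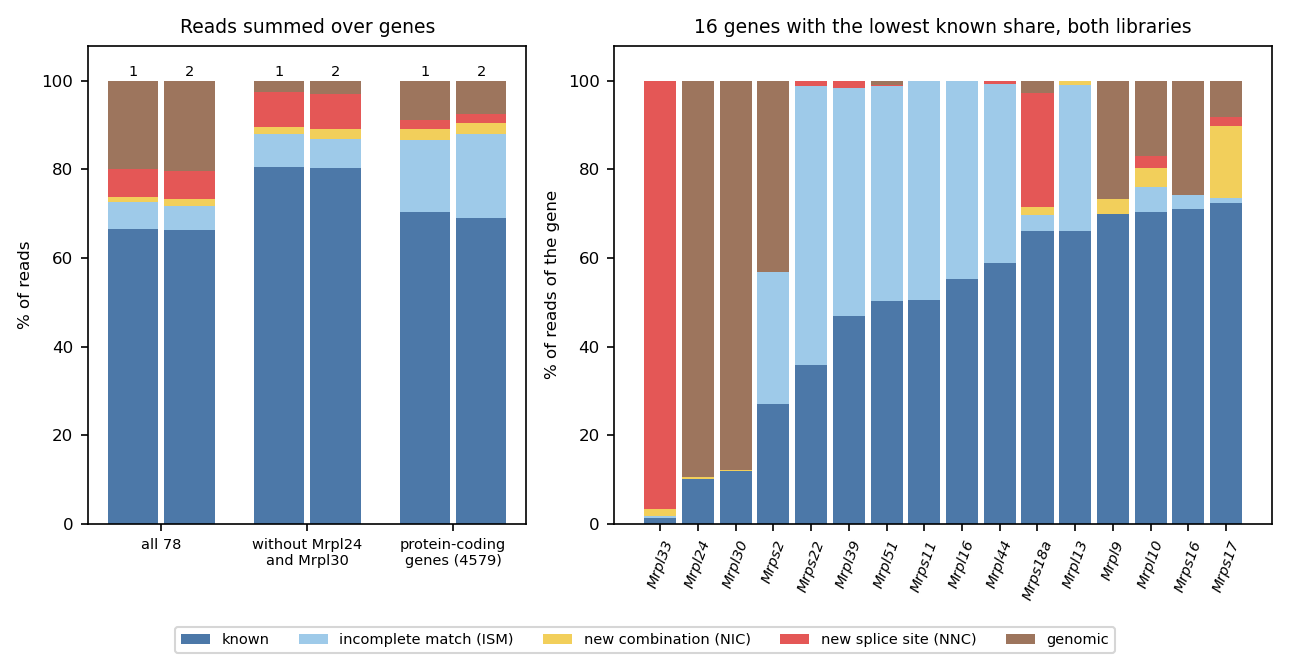
Left, share of reads by class in replicate 1 and replicate 2 (numbered above the bars), summed over all 78 genes, over 76 genes without Mrpl24 and Mrpl30, and over the 4579 protein-coding genes. Right, the same classes for the 16 members with the lowest known share, both libraries together, where Mrpl33 is nearly all new splice site and Mrpl24 and Mrpl30 are mostly genomic.

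Mrpl30 and Mrpl24 held most of the genomic reads. Mrpl30 (chromosome 1, 37890477 to 37898535, plus strand) had 1212 of 1369 reads in replicate 1 and 1260 of 1444 reads in replicate 2 in a single genomic model, listed with 1 exon of 174 bases. Mrpl24 (chromosome 3, 87919506 to 87923672, plus strand) had 250 of 273 reads and 251 of 287 reads in 1 genomic model listed with a length of 1 base. A length of 1 base shows that the listed ends of this Mrpl24 model do not give where its reads lie, so they place no more than the gene. Whether the listed ends of other genomic models, that of Mrpl30 among them, give where their reads lie was not examined. Without both genes the genomic share of the members was 2.45% in replicate 1 and 3.07% in replicate 2, and the known share 80.6% and 80.3%. Counted by known transcripts alone, Mrpl30 had 153 and 181 reads and stood behind Mrpl42, Mrps21, Mrps36 and Mrps24, and Mrpl24 had 23 and 34 reads. Mrps16, the counterpart of bacterial S16, had a smaller genomic part of 35 of 143 reads in replicate 1 and 37 of 136 reads in replicate 2, again in a model of 1 base.

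Mrps2, the counterpart of bacterial S2, had its reads in different classes in the libraries. It had 5 known reads in each library. Its other reads were 11 incomplete matches of 1 exon in replicate 1 (1743 bases) and 16 genomic reads of 1 exon in replicate 2 (1208 bases, with the same end coordinate, 28471165 of chromosome 2). Its leading form was not compared, since 5 reads were left in replicate 2 without the genomic class. With that class kept, Mrps2 was the 1 member called of 77 tested (Fisher's exact test, adjusted p = 7.85e-05), against 144 of 4546 genes (3.17%). Single-exon models of different classes were never matched between the libraries. The call thus follows from the class labels and does not by itself show a difference in form.

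Mrpl33 was the only member whose reads nearly all used a splice site outside the annotation. The leading form had 365 of 380 reads in replicate 1 and 381 of 401 reads in replicate 2. Compared with the annotated coding transcript Mrpl33-201, on chromosome 5 of mm10, plus strand, this form lacked exon 2, of 19 bases (chr5:31614603-31614621), and had 8 more bases at the end of the first exon (chr5:31614023-31614030). Only 4 reads in each library held the short exon. The stretch is shown because it carries the whole difference, spliced as in each form, with the short exon or the added bases in capitals and 12 bases of the neighbouring exons on each side (GENCODE M21 transcripts, reference strain).
Mrpl33 annotated: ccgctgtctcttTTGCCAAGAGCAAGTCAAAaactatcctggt
Mrpl33 new: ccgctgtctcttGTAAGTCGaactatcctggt
Of the 8 added bases 6 equalled, base for base and without gaps, a run inside the short exon (its bases 10 to 17). Both the annotated and the new end of the first exon were followed by GT, the usual first bases of an intron. The new form is 11 bases shorter, so read as listed from the annotated start codon it reached a stop after 42 codons, against 65 codons in the annotated form. The reads themselves were not used here, so whether the 19 bases were present in them was not examined, and the reading frame is that of the listed model.

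Incomplete matches were the leading or second form of several members. As a class they held 5.95% of the members' reads in replicate 1 and 5.28% in replicate 2. Over the 4579 protein-coding genes with 10 reads in each library these shares were higher, at 16.2% and 18.8%. In 13 members an incomplete form had at least 5 reads in each library, and in 9 of these it was a single exon. Such forms were not counted over all genes. Mrpl51, a large subunit protein found only in mitochondria, had the most, with 75 reads (43.1%) in replicate 1 and 85 reads (52.1%) in replicate 2 in a single-exon form of 336 bases (shares leave out the genomic class). Mrpl16, the counterpart of L16 near the peptidyl transferase centre, had 39 and 33 reads (47.6% and 40.7%) in a single exon, and Mrpl44, a protein related to RNase III, 29 and 24 reads (41.4% and 39.3%). In Mrps11, the counterpart of S11 on the platform, the single exon had 32 and 22 reads (51.6% and 44.9%). Mrpl39 and Mrps22 had instead spliced forms that kept only the last exons of the annotated transcript. These were 3 exons with 39 and 41 reads for Mrpl39 (44.3% and 46.1%), and 5 exons with 26 and 25 reads for Mrps22 (66.7% and 59.5%). In each of these genes the short form was a large part of the reads in both libraries.

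The share of the leading form was close in both libraries. Fisher's exact test of the leading share, with Benjamini-Hochberg adjustment over 3925 genes and the genomic class left out, called 0 of 74 members tested, against 73 genes (1.86%) of all. At an unadjusted p under 0.05 there were 4 of 74, Mrps34, Mrps16, Mrpl48 and Mrps35, named after their values were seen, against 287 of all 3925 genes. For Mrps34 the leading share was 81.8% of 55 reads in replicate 1 and 100% of 44 reads in replicate 2 (Fisher's exact test, adjusted p = 0.0963).

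In 13 members at least 2 known transcripts had 5 or more reads in each library, and the annotated coding sequence tells how the proteins would differ. In 4 of them the forms differ by whole codons between the same start and stop. Mrpl55, a large subunit protein, has a pair of acceptors for exon 3, and the longer choice adds 21 coding bases (7 codons). It was used by 21 of 133 reads that chose either in replicate 1 (15.8%) and by 14 of 116 in replicate 2 (12.1%, 95% interval 6.76 to 19.4). Mrps36 has acceptors 6 bases apart (2 codons), and here the longer choice dominated, with 187 of 207 reads in replicate 1 (90.3%, 85.5 to 94.0) and 211 of 243 in replicate 2 (86.8%, 81.9 to 90.8). Mrps10, the counterpart of S10, has acceptors 3 bases apart (1 codon), and used the longer in 9 of 21 reads (42.9%, 21.8 to 66.0) and 8 of 22 reads (36.4%, 17.2 to 59.3). Mrpl58 has 2 donors for its first exon that differ by 87 bases (29 codons), and used the longer in 53 of 60 reads (88.3%, 77.4 to 95.2) and 44 of 49 reads (89.8%, 77.8 to 96.6). Shares in both libraries lay inside each other's intervals in all 4. The added bases are shown in capitals, with 12 bases of the spliced transcript on each side, since they are what the protein gains or loses (GENCODE M21, mm10).
Mrpl55, chr11:59204535-59204555, plus strand: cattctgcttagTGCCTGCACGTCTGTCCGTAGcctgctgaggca
Mrps36, chr13:100739196-100739201, minus strand: ctaaactcagtgCCTCAGaagctttggggt
Mrps10, chr17:47372573-47372575, plus strand: tggcctcgcgctCAGtgccagtatgaa
Mrpl58, chr11:115403874-115403960, plus strand: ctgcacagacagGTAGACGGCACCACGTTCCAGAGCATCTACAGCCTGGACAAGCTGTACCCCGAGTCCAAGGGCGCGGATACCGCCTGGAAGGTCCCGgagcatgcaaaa
In Mrpl55, Mrps36 and Mrps10 the added bases end in AG, as the end of an intron does, so that the shorter form uses this AG as its acceptor.

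**Figure D5:**
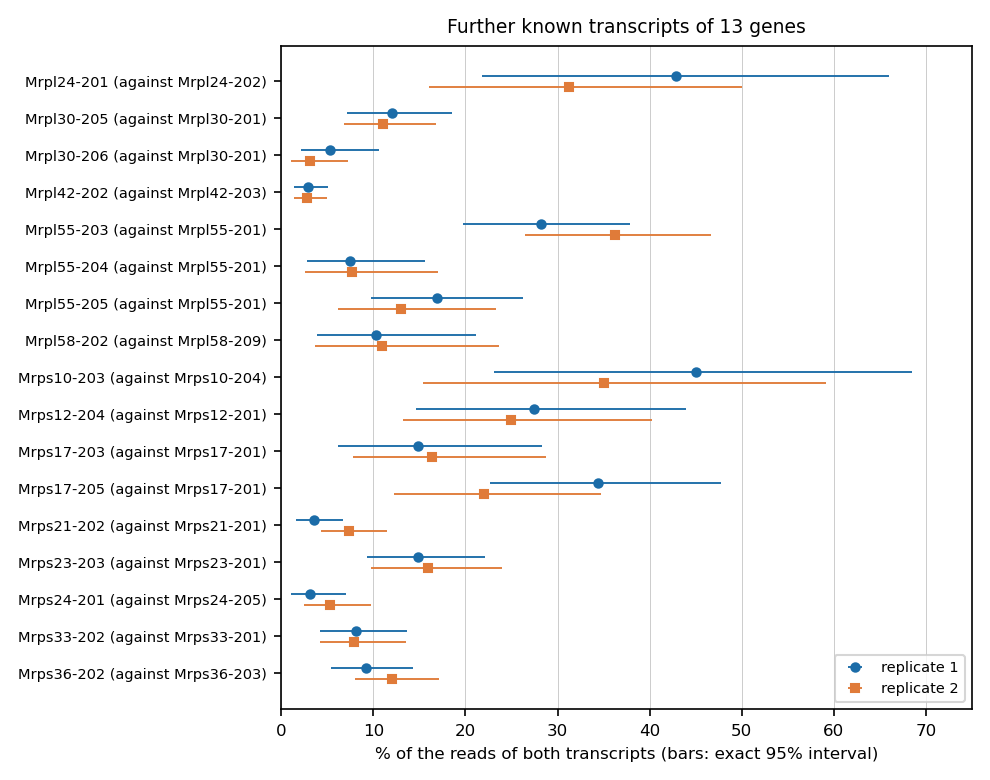
Share of a further known transcript among the reads of it and the gene's leading known transcript, in replicate 1 (circles) and replicate 2 (squares), for 17 transcripts of 13 genes. Bars are exact 95% intervals, which overlap between the libraries for all 17.

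The other known forms mostly differed outside the coding sequence or shortened it. In Mrpl24, Mrpl30 (form 205), Mrpl55 (form 203), Mrps12, Mrps17 and Mrps21 the annotated coding sequence was the same and the forms differed outside it, in Mrps17-203 also by a longer listed end. Mrpl30-205, for example, leaves out exon 2, before the start codon, and had 17 reads in replicate 1 and 19 in replicate 2 beside 125 and 152 of Mrpl30-201. Mrpl55 also chooses between acceptors 3 bases apart in its leader, with 90 of 126 reads (71.4%, 62.7 to 79.1) and 71 of 111 reads (64.0%, 54.3 to 72.9) on the upstream one. Mrps23-203 starts its coding sequence later, 19 codons shorter, and had 20 and 18 reads beside 114 and 95 of Mrps23-201. Mrps33-202 and Mrpl42-202 share the start codon and end at another stop, with coding sequences 72 and 65 codons shorter. Mrps33-202 had 12 reads in each library beside 136 and 139 of Mrps33-201, and Mrpl42-202 had 11 in each beside 372 and 383 of Mrpl42-203. These truncated forms were minor, at 8.11% and 7.95% of both transcripts for Mrps33 and 2.87% and 2.79% for Mrpl42.

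Few other forms outside the annotation recurred. A form of Mrpl55 that joins the first exon to the last, leaving out exons 2 and 3, had 24 reads in replicate 1 and 26 in replicate 2, and a form without exon 2 had 7 and 5. Exons 2 and 3 hold the annotated start codon and 225 coding bases of Mrpl55-201. Mrps18a had 18 and 16 reads in a form of 4 exons with a new first exon, against 6 exons in Mrps18a-201. Mrps17 had 12 and 17 reads in a form without exon 2, of 80 noncoding bases, so its coding sequence was intact. Mrps36 had 7 and 9 reads without exon 3, of 188 coding bases, which is not a multiple of 3. Mrps27 had 6 and 5 reads in a form of 12 exons, against 11 exons in Mrps27-201. This Mrps27 form was classed as an incomplete match in one library and as a new combination in the other.

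Other genes of mitochondrial translation, in lists written beside the members, had 0 called genes of 57 tested between the libraries, against the 2.07% of all genes given above. At an unadjusted p under 0.05 there were 5 (Tufm, Iars2, Mterf3, Mpv17l2 and Ybey, named after their values were seen), against 735 of all 7545 genes. Of 5 ribosome subunits under other names, Gadd45gip1, a large subunit protein, had 235 reads in replicate 1 and 278 in replicate 2, Chchd1 104 and 88, and Aurkaip1 84 and 89. The median of the list was 134 CPM and its sums 806 CPM (replicate 1) and 809 CPM (replicate 2). Assembly factors and rRNA-modifying enzymes had a median of 20.1 CPM over 26 genes, and C1qbp, a matrix protein linked to ribosome assembly, led at 212 and 215 CPM, with Mrm3 and Mtg2 next at 74.5 and 60.0 CPM on average. Among 13 translation factors, at a median of 30.3 CPM, Tufm, the elongation factor that brings tRNA, had 69 and 102 reads, Gfm1 63 and 53, and Tsfm 42 and 47. Slirp and Lrpprc, which together stabilise mitochondrial messages, had 185 and 222 reads and 73 and 68 reads, and the helicase gene Twnk had 66 and 54. The 17 mitochondrial aminoacyl-tRNA synthetase genes had the lowest median, 16.9 CPM, led by Fars2, Cars2 and Iars2 at 74.0, 64.0 and 58.0 CPM on average. The members' median of 102 CPM was above the medians of the assembly, factor and synthetase lists.

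The members were spread over 17 chromosomes. Near copies limit 2 of the values: the processed pseudogene Mrpl23-ps1 on chromosome 2 had 58 reads in replicate 1 and 62 in replicate 2, beside 99 and 97 of Mrpl23, and Mrps36-ps1 had 5 and 3 reads. Reads could have been shared between such copies, so Mrpl23 and Mrps36 are uncertain to that extent. Mrps11 and Mrpl46 overlap by 413 bases on opposite strands of chromosome 7, and since it is not stated whether counting used strand, their reads may not be told apart. The same limit holds for several other members that overlap genes with reads. Mrpl47, for example, overlaps Ndufb5 (607 and 627 reads) by 616 bases on the opposite strand. Mrps24 overlaps Urgcp (47 and 32 reads) by 2264 bases on the same strand. A protein-coding gene starting on the opposite strand within 1000 bases of the member's start was found for 18 of 78 members (23.1%), against 523 of 4579 protein-coding genes (11.4%). In 2 examples the partner was low in one and high in the other. Mrpl30 lies 66 bases from Mitd1, which had 6 reads in replicate 1 and 1 in replicate 2, whereas Mrpl49, with 25 and 33 reads, lies 59 bases from Fau, which encodes a cytosolic ribosomal protein and had 162 reads in each.

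Promoter sequences (RefSeq, GRCm38.p6, 250 bases before to 50 after the start) matched 69 of the 78 genes. Letters searched on both strands were CCGGAAG, bound by ETS family factors, and TATAAA, neither of which contains the other. They were found in 26 members (37.7%) and 5 members (7.25%), and a gene with several promoter entries, such as Mrpl48, can be in both counts. Of the 3667 genes with a sequence among the 4579 above, 23.9% held CCGGAAG and 9.33% TATAAA, and of all 27025 genes with a sequence 9.93% and 15.7%. Matches in the 3 most abundant members that held CCGGAAG are shown in capitals with 8 bases on each side, on the strand of the gene, CTTCCGG being its reverse complement.
Mrps21, chr3:95871482-95871504, minus strand: agcttccgCTTCCGGtccgcaga
Mrpl33, chr5:31613940-31613962, plus strand: cgcatgccCCGGAAGtagtcgtt
Mrpl51, chr6:125192102-125192124, plus strand: gggctaaaCCGGAAGtatttgac
A match describes the letters only, and a promoter without one says nothing of the factor. No binding was measured in these samples.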

How the data were processed

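The authors deposited, per library, counts of long reads for every transcript model with at least 1 read, and a file of model coordinates. Per the notes deposited with them, these were made from filtered alignments to mm10 with the GENCODE M21 annotation; the sources used here name no aligner or version. Models were numbered separately in each library.

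Spliced new models were matched between libraries by intron chain and single-exon ones, within a gene and a class, by 50% reciprocal overlap. Library sizes were scaled by TMM (edgeR 4.0.16, R 4.3.3) on genes with 10 or more reads in all. Reads per gene were compared by a two-sided exact binomial test and leading shares by Fisher's exact test, with Benjamini-Hochberg adjustment over all genes and a threshold of 0.05. Intervals (Clopper-Pearson, 95%) cover counting error only. DESeq2 1.42.0 gave alternative size factors. Python 3.11.15 and scipy 1.17.1 were used. The log2 ratios add 0.5 reads.

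Members and lists were chosen with earlier results of these data known. The rule for named members took the 10 most abundant, the 5 with fewest reads, those called, those led by a form that is not known, those with several known forms or a recurrent new form (5 reads in each library), Mrps18a, Mrps18b, Mrps18c, Mrps30, Mrps36, Mrpl10, Mrpl12, Mrpl45, Mrpl58 and Mrps12, and the 3 most abundant genes of each list. Mrpl3, Mrpl11, Mrpl22, Mrpl38, Mrpl40, Mrpl46, Mrpl47, Mrpl48, Mrpl49, Mrps9, Mrps16, Mrps26 and Mrps34 were named, in whole or part, for their role or after their values were seen.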

Additional observations from a re-analysis of the deposited data

How the results depend on the processing

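The test of reads called 0 members under DESeq2 size factors, unscaled totals, known reads, genomic reads left out, at least 50 reads, no filter and edgeR's exactTest. Over all genes it called 156 of 7545, against 102 of 5399 on known reads, 216 of 6712 with genomic reads left out, 161 of 2897 at 50 reads or more, 129 of 15031 with no filter and 49 of 7545 by exactTest. The exactTest dispersion came from the same 2 libraries, so it is a description and no independent check. The leading share test called 73 of 3925 genes, against 144 of 4546 with the genomic class kept, when 1 member, Mrps2, was called, and 0 on known transcripts only. With genomic reads left out the summed level was 11219 CPM for all members and 7295 CPM for the large subunit. On known reads it was 8084 CPM (large) and 4398 CPM (small), and by gene name 8864 and 3988 CPM. The known share was 88.9% as a median over members and 80.4% without Mrpl24 and Mrpl30, a choice made after seeing the data, and the genomic share 0.741% and 2.76%. Single libraries gave 12540 to 13163 CPM for all members, 8965 to 9301 (large), 3197 to 3510 (small), a known share of 66.4 to 66.6% and a genomic share of 19.8 to 20.3%, and 9 to 10 of the 10 most abundant members. Known reads, or division by the length of the models (genomic ones with their listed lengths), each kept 7 of these 10.

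Some log2 ratios, none called, changed sign. On known reads they were -0.45 (Mrpl24), -0.14 (Mrpl30), 0.10 (Mrps10), 0.10 (Mrps2) and -0.19 (Mrps22). With genomic reads left out they were -0.52 (Mrpl24), -0.12 (Mrpl30), 1.70 (Mrps2) and 0.0071 (Mrps35). With unscaled totals they were -0.0009 (Mrpl30), -0.0015 (Mrpl33), -0.0032 (Mrps14) and -0.0296 (Mrps22). The cause was not tested. No paired analysis was possible because there is 1 group. Members under 50 reads had wide intervals.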
